A study of Mus musculus with 2 samples.

Results

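The genes that make, destroy and read cyclic AMP were followed in cultured mouse oligodendrocyte lineage cells, from control mice and from mice labelled as a conditional knockout of Seh1, a nuclear pore protein. Members were taken by symbol alone, as every row of either library table whose name begins with Pde, Adcy, Prkac, Prkar, Akap, Rapgef or Creb in the numbered families. The rule found 68 genes of the 18651 listed, namely 24 with the phosphodiesterase prefix, 10 adenylyl cyclases, 6 protein kinase A subunits, 15 A-kinase anchors, 6 Rapgef exchange factors and 7 CREB factors. Each group is 1 library of cultured cells. The control was labelled wild type and the other library Seh1cKO and mutant, both on C57BL/6. Precursor cells were immunopanned from forebrain cortex of pups aged 4 to 7 days, on anti-GalC and then anti-O4, and grown with PDGF-AA and bFGF at 20 ng/ml each, CNTF at 10 ng/ml and NT3 at 1 ng/ml. For differentiation triiodothyronine (T3, 60 nM) was added, PDGF-AA, bFGF and NT3 were taken away, and the cells were collected on day 2. No source used here gives the promoter that drove the recombinase, the deleted exons or the number of pups pooled.

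Cyclic AMP is a small messenger made from ATP by adenylyl cyclases, which receptors switch on through the G protein Gs and off through Gi. Phosphodiesterases cut cyclic AMP, cyclic GMP or both. The messenger acts through protein kinase A, held near its substrates by A-kinase anchors, and through the EPAC exchange factors of the GTPase Rap, and protein kinase A phosphorylates the transcription factor CREB. In oligodendrocyte precursors, raising cyclic AMP is known to favour differentiation, and Gpr17, a receptor coupled to Gi, restrains it.

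Expression is given in CPM, the reads assigned to a gene per 1000000 reads of its library, and, where genes are compared with each other, in the deposited FPKM, which also divides by transcript length. The 2 libraries held 20730114 and 20599590 rounded reads. Seh1l, the targeted gene, had 32.1 CPM in control and 18.5 CPM in Seh1cKO, so 0.577 of the control level was left (0.508 to 0.656). Intervals of ratios are exact 95% Clopper-Pearson intervals of the read counts. They cover counting error only, and with 1 library per group no test of the genotype could be made. All 7 lineage markers of oligodendrocytes were present in both libraries, and 5 of them were at least 2-fold lower in Seh1cKO. The others were Olig1 (864 and 873 CPM) and Olig2 (496 and 648 CPM). Of 6 genes of oligodendrocyte precursors, 4 were higher in Seh1cKO and 2 lower, with sums of 1413.3 and 1396.5 CPM. Without Gpr17 (386 and 113 CPM) these sums were 1027 and 1284 CPM. The 8 myelin genes summed to 2754 CPM in control and 570 CPM in Seh1cKO, and the 8 astrocyte genes to 8409 and 5051 CPM. Without Gfap (5200 and 2214 CPM) the astrocyte sums were 3209 and 2838 CPM, and 2 of the 6 measured genes left were higher in Seh1cKO. The 8 fibroblast and mural genes, all higher in Seh1cKO, summed to 201 and 609 CPM, and the 8 epithelial and mesothelial genes to 11.1 and 204 CPM. Of the latter, 6 of 7 measured genes were higher, and Epcam stood at 7.91 and 7.04 CPM. Without Krt8 (0.772 and 78.7 CPM) their sums were 10.4 and 125 CPM. Of the 7 neuron genes 5 were higher in Seh1cKO, 2 of them past 2-fold, and Tubb3 and Map2 were lower. The neuron sums were 415 and 441 CPM, or 386 and 383 CPM without Stmn2 (28.7 and 58.7 CPM). Markers without a read were Cldn5 (endothelial) in control and Upk3b (epithelial and mesothelial) in Seh1cKO. Xist had 18 reads in control and 7025 in Seh1cKO and Ddx3y 1053 and 3, so sex and genotype cannot be told apart.

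CREB binds an 8-base palindrome, TGACGTCA, or its short form, TGACG, on either strand, and these letters were looked for from 250 bases before to 50 after each RefSeq start site (GRCm38.p6). The table held 104 start regions for 56 of the members. It held none for the others, among them Akap12, Pde9a and Adcy8, so these were not searched. The palindrome, which contains the short form on both strands, lay in 3 of the member regions (2.88%) and in 1.79% of all 32851 regions. Of these 3 regions, 2 belong to Prkar1a, overlap and hold the same site. By gene, the palindrome lay in 2 members (3.57%) and in 2.03% of all genes. The short form lay in 24.0% of the member regions and 20.8% of all regions. Counted by gene, 39.3% of the 56 members and 23.0% of all 27025 genes had the short form in at least 1 region, and the members had more regions per gene. A match describes letters and is no measured site. Below, 60-base windows are shown for the 2 members with the palindrome, a CREB gene and the main regulatory subunit of protein kinase A, and for 3 members with the short form alone. These are Pde4b, the most abundant of the hydrolysing phosphodiesterases, and Pde1a and Adcy7, whose levels differed most upward in their families. The windows are chr6:53287232-53287291 (Creb5), chr11:109650874-109650933 (Prkar1a), chr4:102421493-102421552 (Pde4b) and chr8:88282936-88282995 (Adcy7) on the plus strand, and chr2:80039037-80039096 (Pde1a) on the minus strand. Capitals mark the palindrome or the short form.
Creb5: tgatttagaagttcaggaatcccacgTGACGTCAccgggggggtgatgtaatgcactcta
Prkar1a: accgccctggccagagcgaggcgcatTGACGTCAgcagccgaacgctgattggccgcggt
Pde4b: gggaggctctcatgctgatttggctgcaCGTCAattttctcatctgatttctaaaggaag
Pde1a: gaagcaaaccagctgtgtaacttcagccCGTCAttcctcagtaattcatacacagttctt
Adcy7: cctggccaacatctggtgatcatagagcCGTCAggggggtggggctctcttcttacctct

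The Prkar1a palindrome begins 49 bases before one start site and at base 39 after another, and the Creb5 palindrome 45 bases before its start. The 2 genes with the palindrome did not share a difference: Prkar1a stood at 468 and 493 CPM in control and Seh1cKO, and Creb5 at 15.8 and 30.0 CPM. Pde4b has 4 start regions in the table, Pde1a 4 and Adcy7 3, and in each gene 1 of them held the short form.

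Of the 68 members, 55 were measured, meaning that their 2 values averaged 1 CPM or more. The other 13 were below this floor. Among them were the photoreceptor genes Pde6a, Pde6c, Pde6g and Pde6h, the bicarbonate-sensing cyclase Adcy10 and the sperm tail anchors Akap3 and Akap14. Pde4c (0.772 and 1.07 CPM) and Rapgef5 (0.579 and 1.02 CPM) lay just under the floor. Adcy4, also below it, had 3 reads in control and 14 in Seh1cKO (4.70-fold, 1.31 to 25.5). Pde6c, with 1 read in control and 0 in Seh1cKO, was the only member of the 68 without a read in a library. Differences are log2 ratios, log2(CPM + 1) in Seh1cKO minus that in control, and 2-fold on this scale is the threshold. Akap12 and Pde1a were at least 2-fold higher, which is 3.64% of the measured members against 2.86% of all 13758 measured genes. Pde9a and Adcy8 were at least 2-fold lower, again 3.64%, against 1.29% of all genes. Each of these shares rests on 2 genes. Within 2-fold lay 51 of the 55 measured members, 92.7% against 95.8% of all measured genes. The deposited FPKM values, with 1 FPKM added, gave 204 higher and 148 lower genes in all, against 394 and 178 on the CPM scale. The median log2 ratio of the members was 0.13 (order-statistic 95% interval 0.01 to 0.28 over members), beside 0.07 for all genes. Of the members 36 stood above equality and 19 below, 65.5% above against 60.9% of all genes. These 60.9% are also the background for the counts above equality given below, and 95.8% for the counts within 2-fold.

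**Figure D1:**
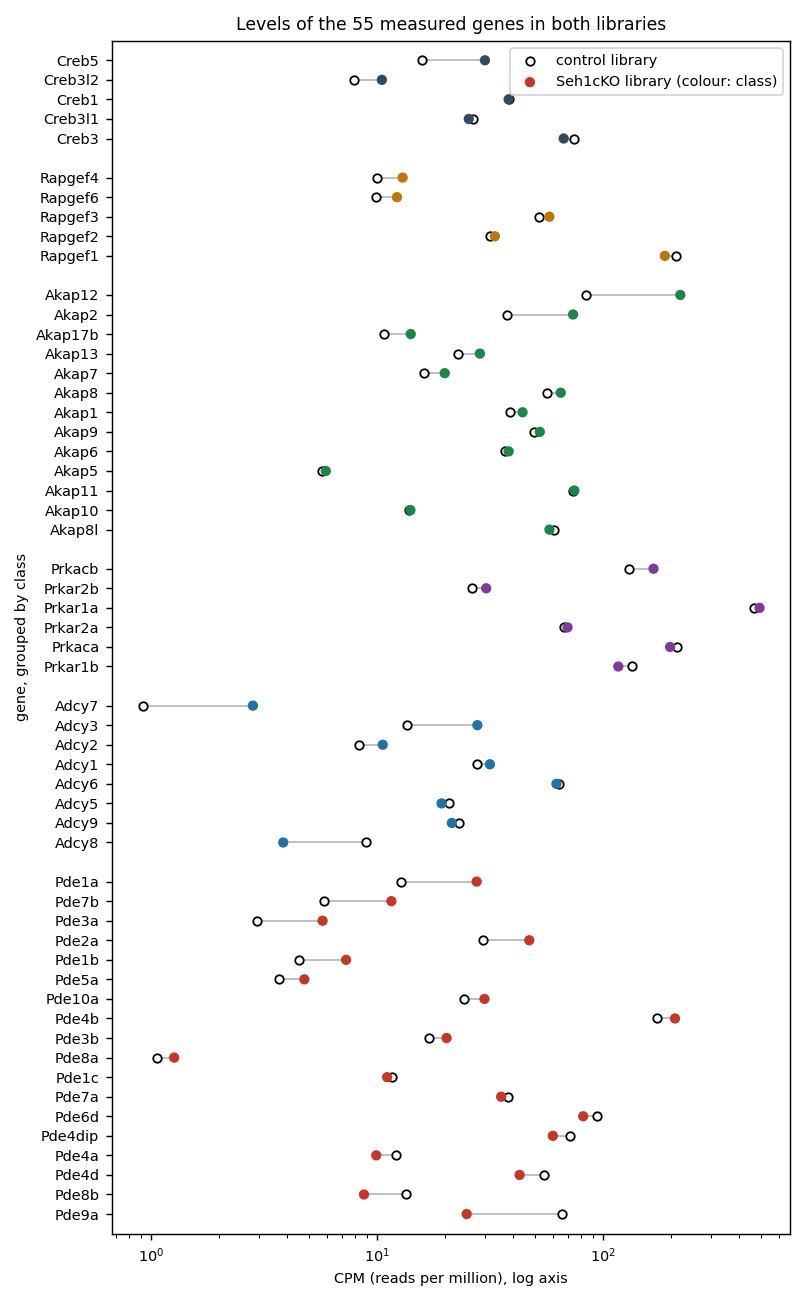
CPM (log axis) of each of the 55 measured members in the control library (open circles) and the Seh1cKO library (filled circles, coloured by class). Most pairs lie close together, while Akap12 (83.9 to 220 CPM) and Pde9a (65.6 to 24.9 CPM) are far apart.

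The most distant phosphodiesterase was Pde9a (Entrez 18585, GRCm38 chromosome 17, 31386105 to 31476309), which cuts cyclic GMP with high affinity and leaves cyclic AMP alone. It had 1359 reads or 65.6 CPM in control and 513 reads or 24.9 CPM in Seh1cKO. The Seh1cKO library was the lower one, by 2.63-fold (2.38 to 2.92), and 89 of the 13758 measured genes had a lower log2 ratio. In the authors' deposited table Pde9a carries a log2 fold change of -1.40. Exons of clone-named genes on the opposite strand cover 8.34% of its exonic bases, and no source used here says whether the counting used strand. Fewer cells of a type and less RNA per cell cannot be told apart in bulk RNA, and all 7 measured myelin genes were at least 2-fold lower in the same library (2754 and 570 CPM in sum). The part of this in the Pde9a difference was not tested.

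Per length, Pde9a was the second most abundant hydrolysing phosphodiesterase in both libraries, after Pde4b. It made up 25.8% of the summed FPKM of these enzymes in control (31.7 FPKM) and 9.84% in Seh1cKO (12.1 FPKM). The other measured enzyme specific for cyclic GMP, Pde5a, the target of sildenafil, had 3.67 and 4.76 CPM (1.30, 0.952 to 1.77), with equality inside the interval.

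The enzymes specific for cyclic AMP showed both directions. Pde4b, of the rolipram-sensitive family, stood at 173 and 208 CPM, 1.20-fold higher in Seh1cKO (1.15 to 1.26), and held 38.8% of the summed enzyme FPKM in control and 46.5% in Seh1cKO. Its better expressed relatives were lower: Pde4d stood at 55.0 and 42.7 CPM (ratio 0.777, 0.711 to 0.849) and Pde4a at 12.1 and 9.90 CPM (0.818, 0.677 to 0.988). Pde4c, below the floor, had 16 and 22 reads (1.38, 0.694 to 2.82). Among enzymes specific for cyclic AMP alone, Pde4b held 68.8% of the FPKM in control and 74.6% in Seh1cKO.

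Pde7b, a rolipram-insensitive enzyme, stood at 5.79 and 11.6 CPM, 2.00-fold higher in Seh1cKO (1.60 to 2.51). Its paralog Pde7a had 38.1 and 35.4 CPM (0.930, 0.840 to 1.03). The high-affinity enzyme Pde8b was at 13.4 and 8.74 CPM, 1.53-fold lower (1.26 to 1.86). Of the 7 measured enzymes specific for cyclic AMP, 3 were above and 4 below equality, none past 2-fold on the log2 scale, with a median log2 ratio of -0.10, or -0.18 over the 6 at 5 CPM or more.

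Enzymes that cut both nucleotides were mostly higher, 6 of 7, against 60.9% of all genes. Their median log2 ratio was 0.59, or 0.44 over the 6 at 5 CPM or more. Pde1a (Entrez 18573, chromosome 2, 79834453 to 80196522), which calcium and calmodulin activate, had 265 reads or 12.8 CPM in control and 568 reads or 27.6 CPM in Seh1cKO. That is 2.16-fold higher (1.86 to 2.51). Its log2 ratio of 1.05 was under the threshold with a pseudocount of 5 CPM (0.87) and with median of ratios scaling (0.98). In deposited FPKM with 1 FPKM added it was also under the threshold (0.91). The FPKM values without this addition, 4.3 in control and 8.99 in Seh1cKO, have a ratio of 2.09. The related Pde1b was at 4.49 and 7.28 CPM (1.62-fold, 1.24 to 2.13) and Pde1c at 11.7 and 11.1 CPM (0.948, 0.788 to 1.14). The authors' deposited table gives Pde1a a log2 fold change of 1.06. Pde2a, which cyclic GMP stimulates, was at 29.3 and 47.1 CPM, 1.61-fold higher (1.45 to 1.78). An overlapping gene model on the same strand, Gm45837, covers 64.3% of the Pde2a exonic bases, so its reads may be shared. The expected counts of Pde2a were whole, 607 in control and 971 in Seh1cKO.

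Pde3a, which cyclic GMP inhibits and which vascular muscle expresses, was at 2.94 and 5.73 CPM (1.95-fold, 1.42 to 2.70). Pde3b was at 16.9 and 20.3 CPM (1.20-fold, 1.04 to 1.39) and Pde10a, an enzyme abundant in the striatum, at 24.2 and 29.9 CPM (1.24-fold, 1.10 to 1.39). Summed over the 8 enzymes of this group the level was 21.4 FPKM in control and 33.3 FPKM in Seh1cKO. Fibroblast and mural genes were 8 of 8 higher in the same library (201 and 609 CPM in sum), and their part in these differences was not tested.

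Under the same prefix stand proteins that are no phosphodiesterases. Pde6d, a chaperone that carries lipid-tailed proteins, had the highest FPKM of the prefix in both libraries, 86.1 in control and 74.8 in Seh1cKO. In CPM it had 94.1 and 81.7 (ratio 0.869, 0.813 to 0.928). Pde4dip, a centrosome and Golgi protein also called myomegalin, was at 71.7 and 60.0 CPM (0.836, 0.774 to 0.902).

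**Figure D2:**
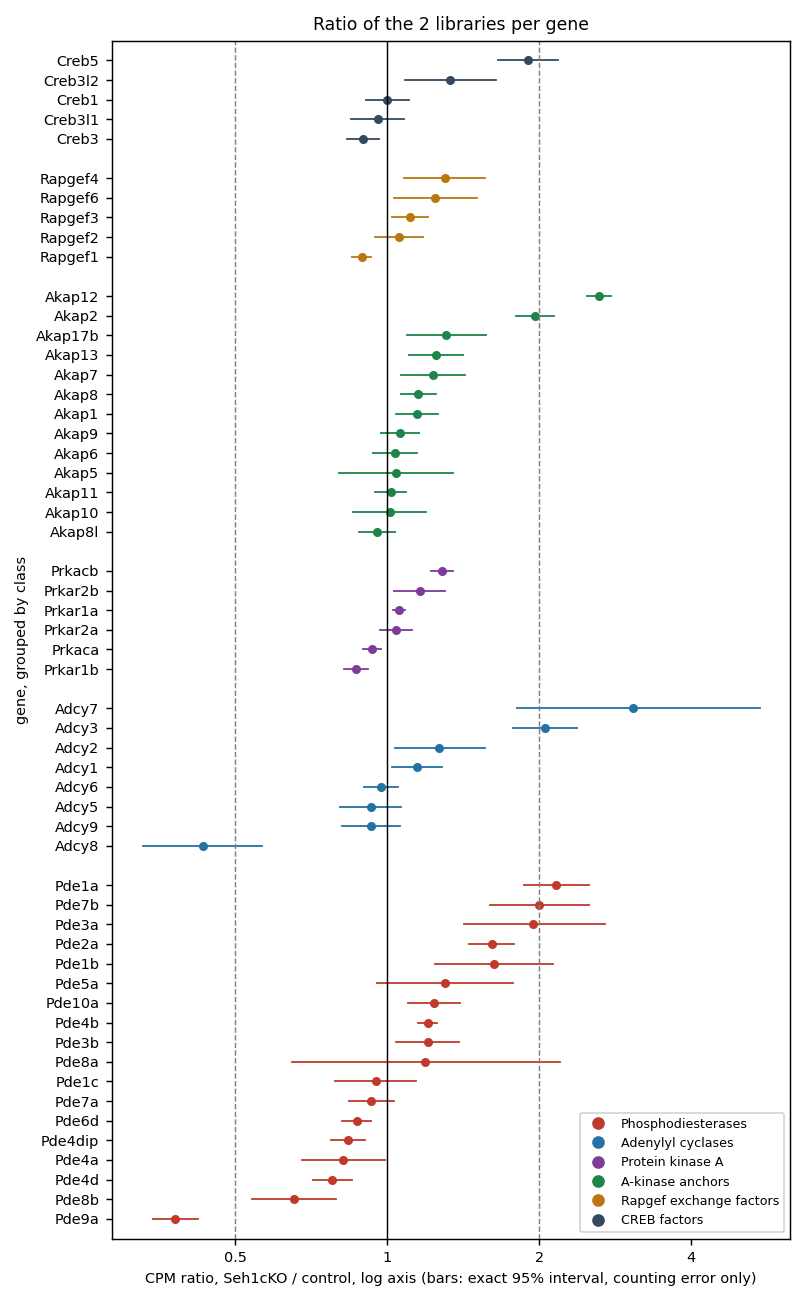
Ratio of CPM in Seh1cKO over control (log axis) for each measured member, with exact 95% intervals for counting error and dashed lines at 2-fold either way. Akap12, at 2.62, and Pde9a, at 0.380, lie beyond these lines with their whole intervals.

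Adenylyl cyclases were split evenly, 4 of 8 measured genes above equality and 4 below, with a median log2 ratio of 0.07, or -0.04 over the 7 at 5 CPM or more. The dominant cyclase, Adcy6, which calcium and Gi inhibit, was alike in both libraries at 64.1 and 62.2 CPM, with an interval of its ratio of 0.898 to 1.05. It accounted for 39.3% of the summed cyclase FPKM in control and 34.8% in Seh1cKO. Its close relative Adcy5 was at 20.8 and 19.3 CPM (0.927, 0.807 to 1.06), and Adcy9, which forskolin hardly activates, at 23.1 and 21.4 CPM (0.926, 0.812 to 1.06).

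The 3 cyclases that calcium and calmodulin stimulate differed in direction. Adcy8 (Entrez 11514, chromosome 15, 64699035 to 64922296) had 184 reads or 8.88 CPM in control and 79 reads or 3.84 CPM in Seh1cKO, 2.31-fold lower (1.77 to 3.05). Its log2 ratio of -1.03 was within 2-fold with a pseudocount of 5 CPM (-0.65) and in deposited FPKM with 1 FPKM added (-0.64). The FPKM values without this addition, 1.73 in control and 0.75 in Seh1cKO, have a ratio of 0.434. Adcy3, known from olfactory neurons and primary cilia, was at 13.6 and 27.8 CPM, 2.05-fold higher (1.77 to 2.37), and its log2 ratio of 0.98 was just short of the threshold. Adcy1 was at 27.5 and 31.6 CPM (1.15-fold, 1.02 to 1.28), and Adcy2, which calmodulin does not stimulate, at 8.35 and 10.6 CPM (1.27-fold, 1.03 to 1.56).

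Adcy3 was at rank 3 of the cyclases per length in control and at rank 2 in Seh1cKO, with 11.4% of the summed FPKM in control and 21.0% in Seh1cKO. Its expected counts were not whole, and the opposite-strand gene Cenpo, at 12.1 and 12.4 CPM, covers 22.1% of its exonic bases. Neuron genes were 5 of 7 higher in Seh1cKO, and their part in the Adcy3 difference was not tested. Adcy7, a cyclase of blood cells, was near the floor with 19 reads (0.917 CPM) in control and 58 reads (2.82 CPM) in Seh1cKO, 3.07-fold (1.80 to 5.46). The 7 microglia markers summed to 8.44 and 17.9 CPM in the same libraries, and 4 of them were measured. Cd68 (3.67 and 8.30 CPM) and Tmem119 (0.868 and 4.17 CPM) differed most, while the intervals of Cx3cr1 and P2ry12 held equality. Of the 3 below the floor, only Aif1 was lower in Seh1cKO (12 and 4 reads). The part of microglia in the Adcy7 difference was not tested. Log2 fold changes in the authors' deposited table are 1.01 for Adcy3, 1.65 for Adcy7 and -1.21 for Adcy8.

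**Figure D3:**
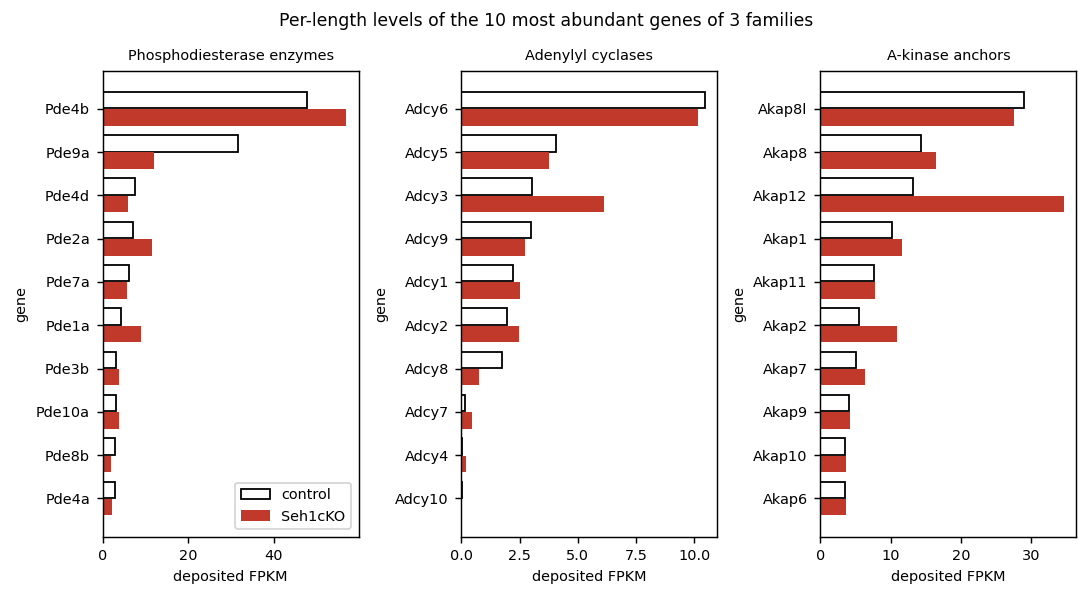
Deposited FPKM (linear axes from 0, 1 per family) of the 10 most abundant hydrolysing phosphodiesterases, adenylyl cyclases and A-kinase anchors, control in open and Seh1cKO in filled bars. Pde9a stands at 31.7 FPKM in control and 12.1 in Seh1cKO, and Akap12 at 13.2 and 34.7, in Seh1cKO above Akap8l and Akap8.

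Protein kinase A, the main sensor of cyclic AMP, had all 6 subunits within 2-fold, where 95.8% of all measured genes lay. The catalytic subunits differed in opposite directions. Prkaca was at 213 and 198 CPM (ratio 0.933, 0.893 to 0.973) and Prkacb at 130 and 167 CPM (1.28, 1.22 to 1.35). Of the catalytic FPKM, Prkacb made up 24.5% in control and 30.9% in Seh1cKO.

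Among regulatory subunits, which hold the kinase inactive until cyclic AMP binds, Prkar1a was the most abundant at 468 and 493 CPM (1.05, 1.02 to 1.08). Its log2 ratio of 0.08 turned to one of -0.0013 when libraries were scaled by the median of ratios. Prkar1b was at 135 and 117 CPM (0.867, 0.821 to 0.916), Prkar2a at 67.0 and 69.6 CPM (1.04, 0.965 to 1.12) and Prkar2b at 26.2 and 30.4 CPM (1.16, 1.03 to 1.30). Prkar1a alone gave 64.5% of the regulatory FPKM in control and 67.1% in Seh1cKO.

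The A-kinase anchors held the largest upward difference of the members. Akap12 (Entrez 83397, chromosome 10, 4266329 to 4359471), a scaffold also called gravin that binds protein kinases A and C, had 1739 reads or 83.9 CPM in control and 4532 reads or 220 CPM in Seh1cKO. The difference was 2.62-fold (2.48 to 2.77), and 173 of the 13758 measured genes had a higher log2 ratio. Akap12 took 13.1% of the summed anchor FPKM in control, behind Akap8l and Akap8, and 26.2% in Seh1cKO, where it led. The authors' deposited table gives it a log2 fold change of 1.39.

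Akap2 was at 37.6 and 73.7 CPM, 1.96-fold higher (1.80 to 2.14), with a log2 ratio of 0.95. Exons of the read-through gene Pakap cover 84.4% of its exonic bases, so these reads cannot be given to Akap2 alone. Akap12 is also expressed by fibroblasts and vessel cells. Fibroblast and mural genes were 8 of 8 and endothelial genes 3 of 4 measured higher in the same library, at 201 and 609 CPM and at 11.1 and 25.4 CPM in sum. Without Cdh5 (1.01 and 13.8 CPM) the endothelial sums were 10.1 and 11.7 CPM. Their part in the Akap12 and Akap2 differences was not tested.

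The remaining anchors differed little. Of 13 measured anchors 12 were above equality, against 60.9% of all genes, with a median log2 ratio of 0.19. After scaling by the median of ratios, however, 8 of 13 were above it. Akap17b (10.8 and 14.1 CPM, 1.31-fold, 1.10 to 1.57), an X-linked gene, Akap13 (22.8 and 28.5 CPM, 1.25-fold, 1.10 to 1.41), and Akap7 (16.2 and 19.9 CPM, 1.23-fold, 1.06 to 1.43) came next. The nuclear anchors Akap8l and Akap8, most abundant per length in control at 28.9 and 14.3 FPKM, had CPM ratios of 0.954 (0.880 to 1.03) and 1.15 (1.06 to 1.25). The mitochondrial anchor Akap1 was at 38.5 and 44.0 CPM (1.14, 1.04 to 1.26), and the centrosomal Akap9 at 49.5 and 52.5 CPM (1.06, 0.973 to 1.16).

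The Rapgef factors load Rap GTPases with GTP, and of these Rapgef3 and Rapgef4 are EPAC1 and EPAC2, which bind cyclic AMP directly. Rapgef3 was at 52.1 and 57.9 CPM (1.11-fold, 1.02 to 1.21) and Rapgef4 at 9.99 and 13.0 CPM (1.30-fold, 1.08 to 1.56). The adaptor-bound Rapgef1 led the family at 211 and 188 CPM (0.890, 0.852 to 0.930) and made up 61.5% of its FPKM in control and 55.7% in Seh1cKO. Rapgef6 was at 9.84 and 12.2 CPM (1.24-fold, 1.03 to 1.50) and Rapgef2 at 31.5 and 33.2 CPM (1.06, 0.947 to 1.18). All 5 measured factors were within 2-fold, as were 95.8% of all measured genes.

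Creb1, the CREB of cyclic AMP signalling, was equal in both libraries at 38.2 CPM, with 792 and 787 reads and an interval of 0.905 to 1.11. Creb5, a related factor, stood at 15.8 and 30.0 CPM, 1.90-fold higher in Seh1cKO (1.66 to 2.17). The CREB3 branch sits in endoplasmic reticulum and Golgi membranes and is released by proteolysis. Its Creb3 had the highest FPKM of the family, 47.5 in control and 42.5 in Seh1cKO, and a CPM ratio of 0.896 (0.833 to 0.964). Exons of the opposite-strand neighbours Gba2 and Tln1 cover 20.8% of Creb3. Creb3l1 was at 26.6 and 25.4 CPM (0.957, 0.848 to 1.08) and Creb3l2 at 7.86 and 10.5 CPM (1.33-fold, 1.08 to 1.64).

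**Figure D4:**
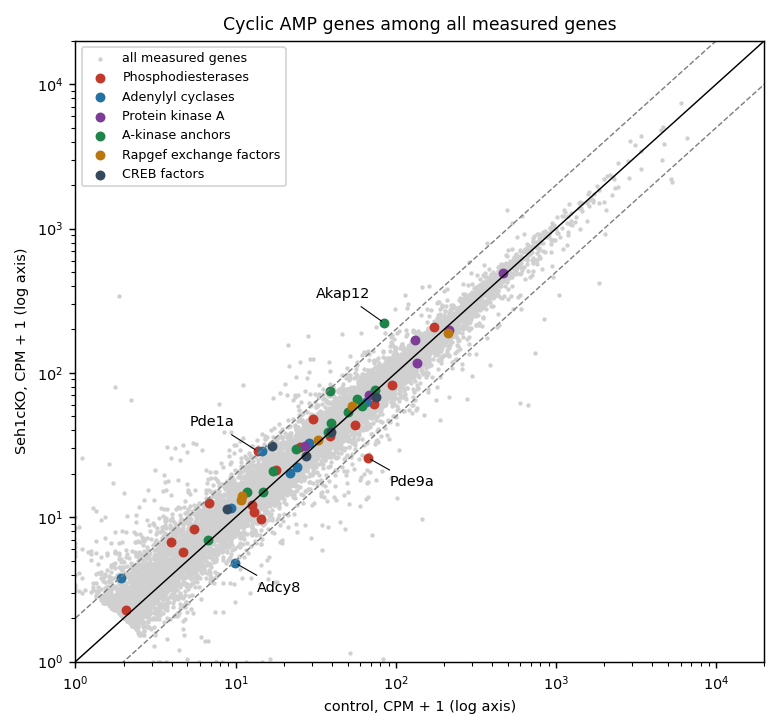
CPM + 1 in Seh1cKO against control (both axes log) for all 13758 measured genes in grey and the 55 measured members in colour, with equality as a solid and 2-fold as dashed lines. The 4 named members, Akap12, Pde1a, Pde9a and Adcy8, lie outside the dashed lines and the other 51 inside.

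Upstream of the cyclases, the G protein subunits were close to equal. Gnas, which encodes Gs alpha, was at 1400 and 1387 CPM (0.991, 0.975 to 1.01), Gnai2 at 1174 and 1088 CPM (0.927, 0.910 to 0.944) and Gnai1 at 63.6 and 50.6 CPM (0.796, 0.733 to 0.864). None of the 7 subunits passed 2-fold, and their median log2 ratio was -0.01.

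Receptors that couple to Gs varied more. Of 9 measured, 7 were above equality, against 60.9% of all genes, with a median log2 ratio of 0.64 (-0.57 to 0.81 over genes). With a floor of 5 CPM 5 genes were left, 3 of them above equality, and the median was 0.10. The adenosine receptor Adora2b was at 3.09 and 6.17 CPM (2.00-fold, 1.47 to 2.74). Pth1r, the parathyroid hormone receptor, was at 25.3 and 11.5 CPM (0.455, 0.389 to 0.532), and Adcyap1r1, the PACAP receptor and the most abundant of the list, at 138 and 92.2 CPM (0.670, 0.632 to 0.711).

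Of 15 measured receptors that couple to Gi, 2-fold was passed upward by 2 (13.3%, against 2.86% of all genes) and downward by 1 (6.67%, against 1.29%), with a median log2 ratio of -0.01. With a floor of 5 CPM, 8 receptors were left, with 0 upward and 1 downward. Gpr17 had 386 and 113 CPM, a ratio of 0.293 (0.279 to 0.307). Grm3, a glutamate receptor, was at 1.11 and 3.59 CPM (3.24-fold, 2.00 to 5.42), and the cannabinoid receptor Cnr1 at 2.46 and 6.21 CPM (2.53-fold, 1.81 to 3.57). The adenosine receptor Adora1 was at 157 and 154 CPM (0.980, 0.933 to 1.03).

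Inhibitors of protein kinase A and regulators of its opposing phosphatases held no gene past 2-fold, in 7 measured. The kinase inhibitor peptides Pkig and Pkia were at 49.3 and 56.1 CPM and at 82.8 and 80.1 CPM. Of 10 CREB partners and coactivators 8 were above equality, against 60.9% of all genes, and none past 2-fold (median log2 ratio 0.16). Among these, the CREB relative Atf1 was at 17.9 and 25.1 CPM (1.40-fold, 1.22 to 1.61), and Crebzf, a repressive partner, at 49.6 and 45.0 CPM (0.907, 0.829 to 0.993).

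Known CREB target genes stood above equality in 17 of 18 cases, or 16 of 18 after scaling by the median of ratios, where 60.9% of all genes did so in the main scaling. The counting interval lay above equality for 11 of the 18, held it for 6 and lay below it for 1. The median log2 ratio was 0.37 (0.21 to 0.61 over members), and 1 gene was past 2-fold, 5.56% against 2.86% of all genes. That gene, Areg, an EGF-type growth factor of epithelia, had 8 reads in control and 77 in Seh1cKO. Epithelial and mesothelial genes summed to 11.1 and 204 CPM in these libraries, or to 10.4 and 125 CPM without Krt8. Their part in the Areg difference was not tested. The immediate early gene Egr1 was at 20.9 and 37.2 CPM (1.78-fold, 1.58 to 2.00) and the phosphatase gene Dusp1 at 22.7 and 39.1 CPM (1.72-fold, 1.53 to 1.93). Junb was at 175 and 160 CPM (0.909, 0.867 to 0.953) and Fos at 65.5 and 68.9 CPM (1.05, 0.976 to 1.13). Several of these genes also respond to growth factor signals.

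The cyclic GMP branch, whose product Pde9a cuts, held 11 measured genes, 9 of them above equality, against 60.9% of all genes. Of the 11, 1 was past 2-fold upward, 9.09% against 2.86% of all genes. The median log2 ratio of the list was 0.22 (-0.10 to 0.61). With a floor of 5 CPM the median of the 4 genes left was 0.06, and none was past 2-fold. Prkg1, the type I kinase of cyclic GMP, was at 34.2 and 22.5 CPM (0.657, 0.583 to 0.740), and Prkg2, the type II kinase, at 2.60 and 6.41 CPM (2.46-fold, 1.78 to 3.44). The natriuretic peptide receptor Npr2, a membrane guanylyl cyclase, was the most abundant per length at 21.5 FPKM in control and had 79.4 and 81.2 CPM (1.02, 0.954 to 1.09). Nos3, the endothelial nitric oxide synthase, was at 1.40 and 2.67 CPM (1.91-fold, 1.20 to 3.10). The soluble cyclase subunit Gucy1b3 was at 16.5 and 17.7 CPM (1.07, 0.924 to 1.25).

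Effectors outside kinase and EPAC also showed both directions. Hcn2, a channel that cyclic AMP opens more easily, was at 28.1 and 19.0 CPM (0.675, 0.592 to 0.768), and the exporter Abcc4 at 69.0 and 75.2 CPM (1.09, 1.01 to 1.17). None of 5 measured channels and exporters passed 2-fold on the log2 scale. Hcn4, with 11 and 35 reads, was at 0.531 and 1.70 CPM.

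Of 11 genes of Rap and the proteins that inactivate it, which lie downstream of the Rapgef factors, 7 were above equality and none past 2-fold (median log2 ratio 0.28). Rap1a was at 136 and 77.2 CPM (0.569, 0.534 to 0.605) while its near twin Rap1b was at 131 and 130 CPM (0.993, 0.941 to 1.05). Sipa1l3, which inactivates Rap, was at 23.5 and 45.5 CPM (1.93-fold, 1.73 to 2.16), and Rap2b at 97.4 and 148 CPM (1.52-fold, 1.44 to 1.61). Of 13 anchors of protein kinase A under other names, 10 were above equality and none past 2-fold (median 0.19, or 0.07 over the 9 at 5 CPM or more). Wasf1, an actin regulator, was at 95.7 and 49.7 CPM (0.519, 0.481 to 0.560), and Ezr, or ezrin, at 314 and 323 CPM (1.03, 0.995 to 1.07).

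**Figure D5:**
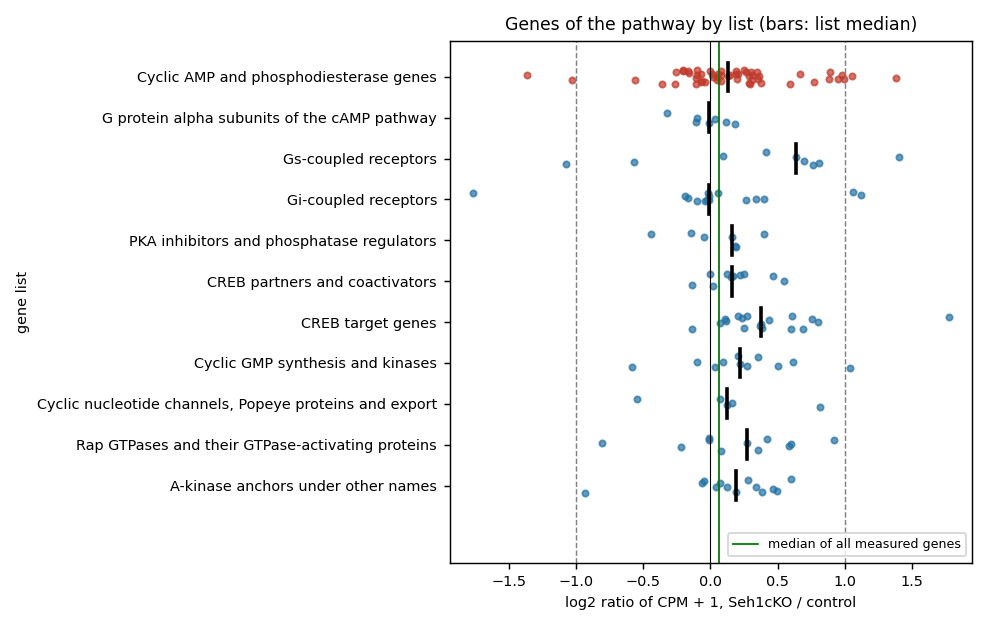
Log2 ratio of CPM + 1, Seh1cKO over control, of each measured member (red) and of the genes of 10 further lists of the pathway (blue), with list medians as black bars and the median of all genes, 0.07, in green. Lists other than the CREB target genes spread around the green line, and 17 of 18 CREB target genes stand above equality. The whole counting interval lies above it for 11 of these. Medians run from -0.01 for the G protein subunits and the Gi-coupled receptors to 0.64 for the Gs-coupled receptors. The latter is 0.10 over the 5 receptors at 5 CPM or more.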

How the data were processed

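RNA sequencing of 2 cultures, 1 per genotype, was analysed. Per the file headers, the authors deposited expected counts, FPKM and a transcript length for each gene of a library, under Entrez identifiers. HTSeq, StringTie and the mm10 build are named in the submitters' processing notes, with no role. No source used here names the aligner, the counting settings or the strand. Expected counts were not whole for 29.3% and 29.5% of genes. The authors' deposited table adds a log2 fold change with a p-value and false discovery rate whose test is not given.

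Expected counts were rounded and scaled to CPM, with 1 CPM added before logarithms, and genes at a mean of at least 1 CPM were measured. Where log2 ratios were taken from deposited FPKM, 1 FPKM was added. A gene absent from a library table was set to 0, and 3 reads, 0.145 or 0.146 CPM, are the limit that a count of 0 allows. Reads lack molecular identifiers, so intervals may be too narrow. The calls and intervals were tested on simulated counts with counting error only and 4-fold changes in genes at 5 CPM or more. Differences near 2-fold and variation between cultures were not simulated, so the test says nothing about either. Members, 10 pathway lists and 9 marker lists were chosen with earlier results of these data known. Named were members past 2-fold, the 4 most distant and 3 most abundant of each class, members in the authors' table, and in each list the 3 most distant and 2 most abundant genes. Some list genes that the rule picks are not reported here, and other genes were named after their values were seen. Coordinates come from RefSeq GRCm38.p6, on which mm10 is based (67 of 68 members matched), and exon overlaps from GENCODE on the same build. Python 3.11.15, pandas 2.3.3 and scipy 1.17.1 were used.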

Additional observations from a re-analysis of the deposited data

How the results depend on the processing

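At 1 library per genotype no value can be set against variation between cultures, and depth limits the genes near 1 CPM, such as Adcy7 and Pde8a. Of the 55 measured members, 6 changed the sign of their log2 ratio under another scaling, and none under another pseudocount or in FPKM. These were Prkar1a, Prkar2a, Akap5, Akap6, Akap10 and Akap11, all within 0.08 of equality. The members' median was 0.13 in the main setting and between 0.07 and 0.15 in every alternative. Median of ratios scaling took the median of all genes from 0.07 to -0.005 and the members above equality from 36 to 30. Some list medians moved by over 1.5 times. With a floor of 5 CPM the Gs-coupled receptors went to 0.10 from 0.64, the cyclic GMP list to 0.06 from 0.22, the other anchors to 0.07 from 0.19 and channels and export to 0.07 from 0.12. Higher members numbered 4 with a pseudocount of 0.1 CPM, where Adcy3 and Adcy7 joined. They numbered 1, Akap12, with a pseudocount of 5 CPM, with median of ratios scaling or in deposited FPKM with 1 FPKM added. Lower members numbered 1, Pde9a, with a pseudocount of 5 CPM and in deposited FPKM with 1 FPKM added, where Adcy8 stood at -0.65 and -0.64. Both counts were 2 with upper quartile scaling, no floor or a floor of 5 CPM, and when X and Y genes were left out, which was added once the data had been seen. Over all genes, 637 were higher with a pseudocount of 0.1 CPM, 141 with 5 CPM and 228 with a floor of 5 CPM, against 394. No paired analysis was possible because each group has 1 library.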

Other observations

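The deposited transcript length of a gene can differ between the 2 libraries. It did so for 26 of the 55 measured members and by more than 1% for 6 of them. Creb5 was listed at 7587 bases in control and 7825 in Seh1cKO, and Pde1a at 2954 and 3043. Pde4dip went the other way, at 6664 and 6540 bases, as did Rapgef6 at 8185 and 8038. Creb5 and Pde1a are listed with 3 and 4 transcripts, and both also had higher read counts in Seh1cKO. The levels of single transcripts were not analysed here.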
